A study of Mus musculus with 6 samples.

Results

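The genes described here are 10 imprinted genes that regulate growth: H19, Meg3, Dlk1, Peg3, Plagl1, Cdkn1c, Grb10, Mest, Ndn and Zim1. They were chosen by name, as the rows of the deposited expression table that carry these symbols, and all 10 were found among the 55401 genes of the table. An imprinted gene is expressed mainly from the copy inherited from 1 parent, because the other copy carries a mark, usually DNA methylation, that was set in the egg or the sperm. Many genes expressed from the paternal copy promote growth of the embryo and many expressed from the maternal copy restrain it. Several of the genes form a network that is highly expressed in the embryo and declines after birth, and some, such as Dlk1, H19 and Cdkn1c, are known from progenitor and stem cells of adult tissues.

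The cells were mesenchymal stromal cells (MSC), plastic-adherent connective tissue progenitors, grown from the femoral marrow of C57/B6J mice. Both groups received 3 µg/mL lipopolysaccharide (LPS), a bacterial outer membrane component sensed by TLR4, for 24 h. The 3 wild-type (WT) libraries and the 3 NLRP3-/- libraries (knockout) thus differ by the genotype of Nlrp3, the sensor of an inflammasome, and the comparison addresses how the genotypes differ under LPS, not the response to LPS. Cells without LPS, also part of the protocol, were not analysed here. Sample titles carry a day of 1, 2 or 3 in both genotypes, whereas a second label reads day 1 throughout, and it is not stated whether a day was shared across genotypes. Nothing in the labels says that the libraries come from separate animals or cultures, and the p-values then measure only the spread among the 6 libraries, possibly a technical one. Were all libraries of a genotype made from 1 culture, genotype and culture cannot be told apart.

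The libraries held 53.16 to 66.3 M estimated counts (M, 1e6), about 13.29 to 16.57 M fragments. Nlrp3 was at 2.76, 1.68 and 1.86 FPKM (fragments per kilobase of transcript, corrected for the size of the library) in WT replicates 1 to 3 and was listed at 0 in all 3 knockout libraries. Calls are those of limma on log2(FPKM + 1), at an adjusted p of 0.05, unless another test is named. Of the stromal markers, 15 of 16 were tested, 3 were called higher and 11 lower in the knockout. The summed level of the 16 was 3416 to 3772 FPKM in WT and 2303 to 2523 FPKM in knockout libraries. Most of that sum is Col1a1 (means of 1726 FPKM in WT and 1301 FPKM in the knockout) and Col1a2 (854.3 and 657.5 FPKM). Thy1, Pdgfra and Ly6a had the largest decreases, and Nt5e (which passed the filter only through the knockout), Twist1 and Cxcl12 were the 3 called higher. Cxcl12 lost its call in all 6 fits that left out 1 library (limma adjusted p = 0.0713 to 0.117), and with a filter of 0.1 FPKM 2 stromal markers were called higher and 9 lower. Of the macrophage markers, 14 of 18 were tested and all 14 were called higher, Marco, Clec4d and Adgre1 by the most. The summed level of the 18 was 654.3 to 747.6 FPKM in WT and 1594 to 1804 FPKM in knockout libraries, most of it Lyz2 (means of 462.9 and 1145 FPKM). Endothelial markers summed to 0.73 to 0.93 and 0.16 to 0.33 FPKM, and muscle progenitor markers to 0.45 to 1.28 and 0.31 to 0.41 FPKM, with Pax7 and Myod1 at 0 throughout. One gene each of the adipocyte (Cebpa), neural (Tubb3) and blood progenitor (Cd34) lists was tested and each was higher, while Adipoq, Plin1, Lep, Sox10, Elavl4, Gata1 and Elane were at 0 in all 6 libraries. With the filter of 0.1 FPKM 5 adipocyte markers were tested, 2 called higher and 1 lower. The 1 called lower was Lpl (0.77 FPKM in WT and 0.347 FPKM in the knockout on average, limma adjusted p = 0.0111). The part of the shift from stromal to macrophage markers in the results below was not tested, and in RNA from whole cultures fewer cells of a type and less RNA per cell cannot be told apart. All cells carried the same inbred background, so the maternal and paternal transcripts could not be separated.

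The promoters of the members that differed most clearly are shown first, because the DNA around the start site is where the marks of imprinted genes often lie. The windows of 300 bases run from 250 before to 50 after a RefSeq start (GRCm38.p6) and include the first bases of the first exon. Of the 10 members, 8 had such windows, 12 in all; H19 and Cdkn1c had none. They are, 5′ to 3′ on the gene's strand, Grb10 at chr11:12037371-12037670 (minus strand), Mest at chr6:30737800-30738099 (plus), Peg3 at chr7:6730370-6730669 (minus), Ndn at chr7:62348027-62348326 (plus), Dlk1 at chr12:109452573-109452872 (plus) and Meg3 at chr12:109540746-109541045 (plus). Capitals mark TGCCGC, the letters bound by the imprint-protecting protein ZFP57 when methylated, on either strand, and in Peg3 the letters GGGGCCCC, bound by PLAGL1.
Grb10: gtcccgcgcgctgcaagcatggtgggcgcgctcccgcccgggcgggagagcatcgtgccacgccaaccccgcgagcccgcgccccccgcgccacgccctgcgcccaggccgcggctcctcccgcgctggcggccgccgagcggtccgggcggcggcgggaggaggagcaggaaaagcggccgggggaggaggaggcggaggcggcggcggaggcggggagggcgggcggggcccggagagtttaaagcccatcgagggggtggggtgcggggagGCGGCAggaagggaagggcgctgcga
Mest: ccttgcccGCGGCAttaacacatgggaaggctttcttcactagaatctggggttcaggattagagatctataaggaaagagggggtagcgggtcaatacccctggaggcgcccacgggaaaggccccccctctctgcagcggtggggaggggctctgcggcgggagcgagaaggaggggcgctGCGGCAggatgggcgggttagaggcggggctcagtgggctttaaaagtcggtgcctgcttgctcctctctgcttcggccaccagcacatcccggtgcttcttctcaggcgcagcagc
Peg3: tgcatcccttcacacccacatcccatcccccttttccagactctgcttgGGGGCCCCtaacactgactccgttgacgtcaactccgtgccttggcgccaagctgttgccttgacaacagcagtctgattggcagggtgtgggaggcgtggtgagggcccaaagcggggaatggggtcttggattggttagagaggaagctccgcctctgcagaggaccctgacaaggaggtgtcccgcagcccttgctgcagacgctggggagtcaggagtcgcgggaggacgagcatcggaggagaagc
Ndn: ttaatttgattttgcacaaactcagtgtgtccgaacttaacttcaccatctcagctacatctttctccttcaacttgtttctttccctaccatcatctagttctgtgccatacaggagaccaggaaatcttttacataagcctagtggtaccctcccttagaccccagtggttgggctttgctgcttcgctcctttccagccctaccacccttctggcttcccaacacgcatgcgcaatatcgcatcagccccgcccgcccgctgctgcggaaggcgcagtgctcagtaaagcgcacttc
Dlk1: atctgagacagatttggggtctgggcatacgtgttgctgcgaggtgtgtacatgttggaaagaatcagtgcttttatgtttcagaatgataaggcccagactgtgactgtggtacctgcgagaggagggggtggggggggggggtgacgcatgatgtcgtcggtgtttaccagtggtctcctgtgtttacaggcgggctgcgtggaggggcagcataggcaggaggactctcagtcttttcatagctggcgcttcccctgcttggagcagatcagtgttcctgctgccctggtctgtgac
Meg3: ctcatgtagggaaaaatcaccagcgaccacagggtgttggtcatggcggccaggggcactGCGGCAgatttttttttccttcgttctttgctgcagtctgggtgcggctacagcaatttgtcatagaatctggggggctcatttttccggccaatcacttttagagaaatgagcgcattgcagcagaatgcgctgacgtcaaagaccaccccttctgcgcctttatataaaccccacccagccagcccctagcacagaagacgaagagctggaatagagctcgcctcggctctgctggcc

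The first 3 belong to genes with higher levels in the knockout and the last 3 to genes with lower levels. TGCCGC was found on either strand in 6 of the 12 member windows, 2 of them overlapping windows of Mest, and in 11.6% of the 32851 mouse promoter windows of this length. In the windows printed it stood in Mest, Grb10 and Meg3, and not in Peg3, Ndn or Dlk1, so both directions of difference occur with and without it. GGGGCCCC was found in the Peg3 window alone among the 12, and in 1.08% of all windows. The printed Grb10 window held 45 CG pairs, more than 98.1% of all windows, against 17 in the printed Mest window, 13 in Peg3 and in the printed Meg3 window, 11 in Ndn and 9 in Dlk1. The median of all windows was 7. Grb10, Mest and Meg3 each have a further start whose window held no TGCCGC and 9, 8 and 1 CG pairs, and the windows with a match were the ones printed. These matches describe letters only, and which of the start sites the cells used was not measured here.

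In 8 of the 10 members the groups did not overlap, 3 being higher and 5 lower in the knockout, while 1 (Plagl1) overlapped, and 1 (Zim1) was near the limit of detection. Among genes with at least 0.1 FPKM in 3 libraries, 33.2% did not overlap, 16.9% being higher and 16.3% lower. Peg3 passed that filter only through the knockout, and the members were not all subject to it, so the count of 8 is given as a description. The main test was limma on log2(FPKM + 1) over 12136 genes with at least 1 FPKM in at least 3 libraries, with Benjamini-Hochberg adjustment and a threshold of 0.05, which called 19.6% of them, 10.4% higher and 9.2% lower. Of the members, 6 passed this filter, with 2 called higher (Grb10, Mest) and 4 lower (Ndn, Meg3, Dlk1, Cdkn1c). Mest, Dlk1 and Cdkn1c passed it only through the group in which they are high and so had to differ, and the count of 6 is therefore not read against the background. The other 3, Grb10, Ndn and Meg3, had at least 1 FPKM in all 6 libraries, and limma called 18% of such genes in either direction. Peg3, H19 and Plagl1 were tested in a fit that kept genes with at least 0.1 FPKM in 3 libraries (17751 genes, 8.3% called higher, 7.46% lower), and in edgeR's quasi-likelihood test on the estimated counts (17479 genes, 8.48% higher, 8.12% lower). Peg3 passed the lower filter only through the knockout and so had to differ, and nothing is read from its call against these shares. In single comparisons an exact two-sided permutation test of 3 against 3 libraries cannot go below p = 0.1, which the 8 members without overlap reached.

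**Figure D1:**
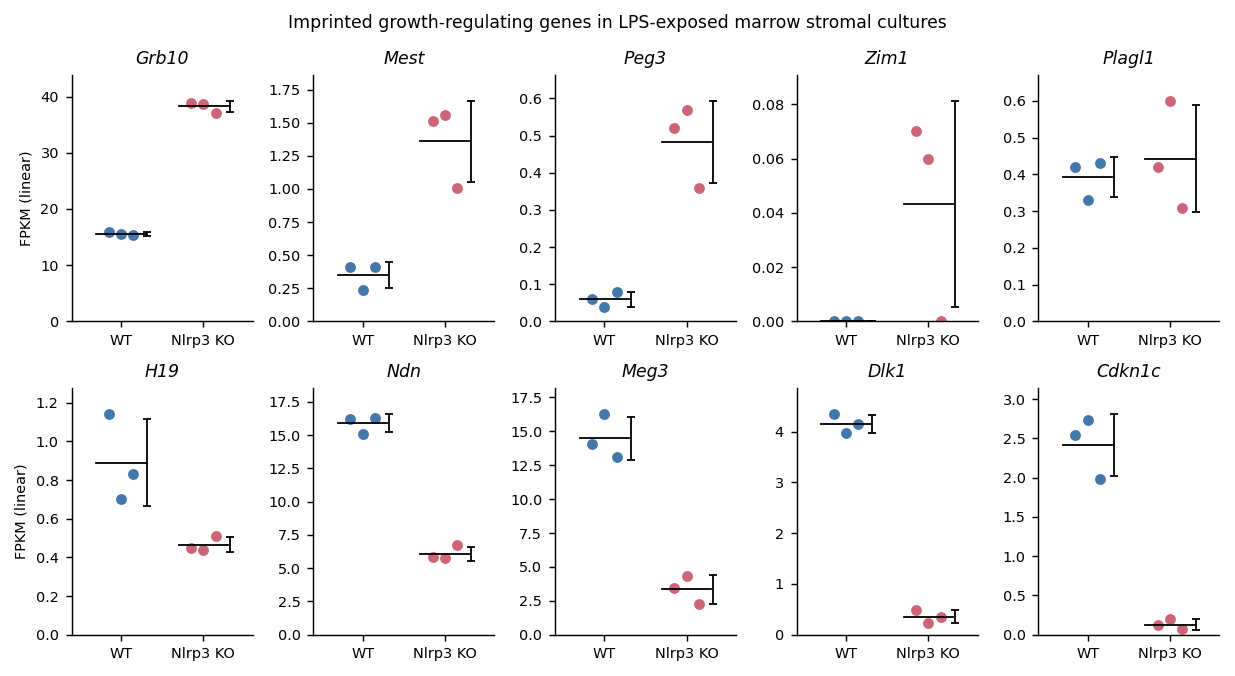
FPKM (linear axes from 0, one scale per gene) of the 10 members in the 3 WT (blue) and the 3 knockout libraries (red); lines are means and bars ± SD. Grb10, Mest and Peg3 lie wholly higher in the knockout, H19, Ndn, Meg3, Dlk1 and Cdkn1c wholly lower, and Plagl1 and Zim1 overlap.

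Grb10, Mest and Peg3 rose in the knockout. Grb10 encodes an adaptor that binds the insulin and IGF1 receptors and restrains their signalling, and is expressed from the maternal copy in most tissues. The gene (ENSMUSG00000020176, GRCm38 chr11:11930508-12037401, minus strand) was at 15.94, 15.49 and 15.31 FPKM in WT replicates 1 to 3 and at 38.9, 38.68 and 37.12 FPKM in knockout replicates 1 to 3. All knockout libraries were far above all WT libraries, and the spread within each group was small. The mean rose from 15.6 ± 0.325 to 38.2 ± 0.97 FPKM (SD, n = 3 each), 2.45-fold, with a log2 difference of 1.24 ± 0.06 (SE, limma on log2(FPKM + 1), adjusted p = 3.57e-05). Grb10 was the second most abundant member in WT cells, after Ndn, and the most abundant in knockout cells. It lies on the same chromosome as Nlrp3, 47.5 Mb away.

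Mest, a protein of the alpha/beta hydrolase family made from the paternal copy and linked to fat cell size and growth, was low in both groups. The gene (ENSMUSG00000051855, chr6:30723547-30748462, plus strand) was at 0.41, 0.24 and 0.41 FPKM in WT and at 1.51, 1.56 and 1.01 FPKM in knockout libraries. The lowest knockout library, replicate 3, still lay above the highest WT value. Mest rose 3.85-fold, from 0.353 ± 0.0982 to 1.36 ± 0.304 FPKM (SD, n = 3 each; limma log2 difference 0.8 ± 0.12, SE, adjusted p = 0.00522). Mest overlaps Copg2 on the other strand, and whether counting used the strand is not given in the sources used here. Copg2 stood at 8.99 and 8.39 FPKM on average and was not called (adjusted p = 0.401, limma), and its part in the Mest values was not tested.

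Peg3, a zinc finger protein made from the paternal copy that acts in cell survival and stem cell pathways, stayed below 1 FPKM in every library. The gene (ENSMUSG00000002265, chr7:6703892-6730421, minus strand) was at 0.06, 0.04 and 0.08 FPKM in WT and at 0.52, 0.57 and 0.36 FPKM in knockout libraries. The knockout libraries were clearly separate, and about 38.75 fragments in all WT libraries stood against 330.8 in the knockout. In the fit with the lower filter Peg3 rose by 0.48 ± 0.07 on the log2(FPKM + 1) scale (SE, limma, adjusted p = 0.00566), which understates the change of a low gene. The ratio of the FPKM means was 8.06, and edgeR gave a log2 difference of 3.01 (adjusted p = 0.000607).

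Zim1, a zinc finger gene next to Peg3 that is made from the maternal copy, was barely detected. It was listed at 0 in all WT libraries and at 0.07, 0.06 and 0 FPKM in knockout replicates 1 to 3, so that knockout replicate 3 did not differ from WT. The knockout held 68 estimated counts, about 17 fragments. Scaled for library totals, this is 5.58-fold a floor of 12 estimated counts (3 fragments) set for the WT group. The floor allows for counting error in WT only, and the error of the knockout counts is not covered. Zim1 was below both filters, and edgeR without a filter gave an adjusted p of 0.138.

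Ndn, Meg3, Dlk1 and Cdkn1c fell in the knockout. Ndn encodes necdin, a growth suppressor of the MAGE family made from the paternal copy. The gene (ENSMUSG00000033585, chr7:62346569-62350262, plus strand) was at 16.24, 15.12 and 16.32 FPKM in WT and at 5.82, 5.75 and 6.71 FPKM in knockout libraries. Within each group the libraries lay close together. The mean fell from 15.9 ± 0.671 to 6.09 ± 0.535 FPKM (SD, n = 3 each), WT being 2.61-fold higher (limma log2 difference -1.25 ± 0.08, SE, adjusted p = 0.000122).

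Cdkn1c encodes p57KIP2, an inhibitor of cyclin-dependent kinases made from the maternal copy, whose loss gives overgrowth in mice. The gene (ENSMUSG00000037664, chr7:143458339-143461050, minus strand) was at 2.54, 2.73 and 1.98 FPKM in WT and at 0.12, 0.2 and 0.07 FPKM in knockout libraries. All 3 knockout values were near 0 and far below WT, and they rest on 18, 27 and 10 counts, about 13.75 fragments together. The mean fell from 2.42 ± 0.39 to 0.13 ± 0.0656 FPKM (SD, n = 3 each), a ratio of 18.6, the highest of the members that were lower (limma log2 difference -1.59 ± 0.11, SE, adjusted p = 0.000188; edgeR -4.19, adjusted p = 0.000292).

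H19, a long noncoding RNA made from the maternal copy that restrains growth and carries Mir675, was low in both groups. The gene (ENSMUSG00000000031, chr7:142575529-142578143, minus strand) was at 1.14, 0.7 and 0.83 FPKM in WT and at 0.45, 0.44 and 0.51 FPKM in knockout libraries. The groups did not overlap, and WT was 1.91-fold higher on average, but the call depended on the test. H19 missed the threshold in limma with the lower filter (-0.36 ± 0.1, SE, adjusted p = 0.0591) and passed it in edgeR (-0.94, adjusted p = 0.0472) and DESeq2 (adjusted p = 0.0349), while edgeR without a filter gave 0.081.

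Plagl1, a zinc finger factor made from the paternal copy that activates other imprinted genes, was at 0.42, 0.33 and 0.43 FPKM in WT and at 0.42, 0.6 and 0.31 FPKM in knockout libraries. The groups overlapped, and the difference was 0.05 ± 0.09 on the log2(FPKM + 1) scale (SE, limma with the lower filter, adjusted p = 0.789). Knockout replicate 3 was the lowest of its group in 7 of the 10 members and was the lowest in 34.83% of all tested genes.

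**Figure D2:**
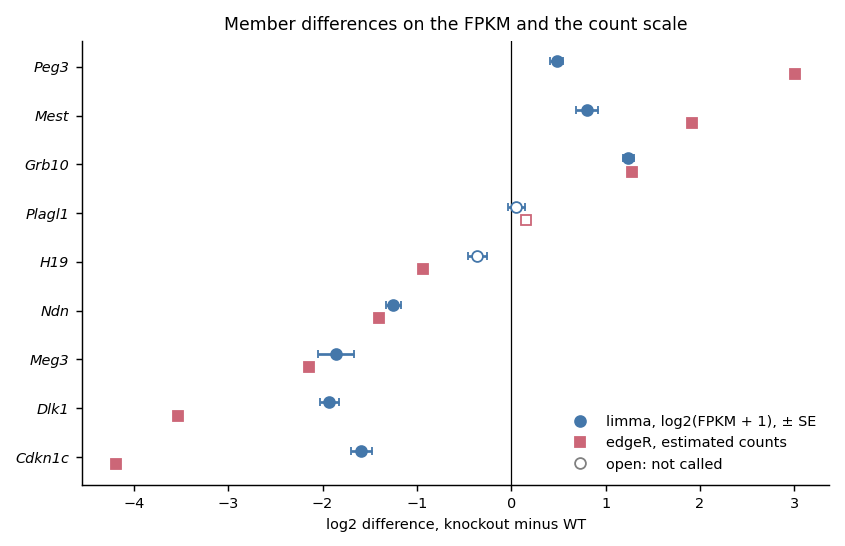
Log2 differences, knockout minus WT, of the 9 members that passed the lower filter, from limma on log2(FPKM + 1) (circles ± SE) and from edgeR on the estimated counts (squares); open symbols did not pass the adjusted threshold. Both scales give the same sign for each gene, and H19 passed only in edgeR.

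The direction did not follow the parental copy. Of the 5 members expressed from the maternal copy, edgeR called Grb10 higher and Cdkn1c, Meg3 and H19 lower; of the 5 expressed from the paternal copy, it called Peg3 and Mest higher and Dlk1 and Ndn lower. The order of the members by FPKM changed accordingly. In WT cells it ran Ndn, Grb10, Meg3, Dlk1, Cdkn1c, H19, Plagl1, Mest, Peg3, Zim1, and in knockout cells Grb10, Ndn, Meg3, Mest, Peg3, H19, Plagl1, Dlk1, Cdkn1c, Zim1. In WT the values of Ndn and Grb10 overlapped, as did those of Grb10 and Meg3 and of Plagl1 and Mest. In the knockout those of Peg3, H19, Plagl1 and Dlk1 overlapped in part, and Cdkn1c and Zim1 met at 0.07 FPKM. The other neighbours in each order did not overlap. The summed FPKM of the 10 was 52.63 to 55.17 in WT and 48.69 to 52.44 in knockout libraries.

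Dlk1 and Meg3 are neighbours in an imprinted domain of chromosome 12 that runs to Dio3. There the paternal copy gives the protein-coding genes Dlk1, Rtl1 and Dio3, and the maternal copy gives a chain of noncoding RNAs, Meg3, Rian and Mirg, with many small RNAs. Dlk1, a membrane protein of preadipocytes and stromal progenitors that holds back differentiation (ENSMUSG00000040856, chr12:109452823-109463336, plus strand), was at 4.34, 3.98 and 4.14 FPKM in WT and at 0.49, 0.23 and 0.35 FPKM in knockout libraries. The groups lay far apart. Dlk1 fell from 4.15 ± 0.18 to 0.357 ± 0.13 FPKM (SD, n = 3 each), a ratio of 11.6 (limma log2 difference -1.93 ± 0.1, SE, adjusted p = 4.41e-05; edgeR -3.53, adjusted p = 0.00015).

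Meg3, the maternally expressed noncoding RNA (ENSMUSG00000021268, chr12:109541001-109571721, plus strand), starts 88.18 kb downstream of the start of Dlk1. It was at 14.08, 16.25 and 13.13 FPKM in WT and at 3.44, 4.35 and 2.25 FPKM in knockout libraries. Meg3 fell from 14.5 ± 1.6 to 3.35 ± 1.05 FPKM (SD, n = 3 each), a ratio of 4.33 (limma log2 difference -1.86 ± 0.19, SE, adjusted p = 0.000803). Rian, the next noncoding RNA, was at 6.34, 6.8 and 6.47 FPKM in WT and at 1.57, 1.35 and 1.25 FPKM in knockout libraries and fell by 1.66 on the log2(FPKM + 1) scale (SE 0.08, limma, adjusted p = 4.19e-05). Mirg fell too, from 1.78 ± 0.147 to 0.26 ± 0.121 FPKM (SD, n = 3 each; adjusted p = 0.000479).

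Dio3 went the other way. It encodes the deiodinase that inactivates thyroid hormone and lies at the far end of the domain, 826.2 kb from the start of Dlk1 (chr12:110279068-110281097, plus strand). Dio3 was at 9.09, 8.67 and 8.48 FPKM in WT and at 36.95, 33.15 and 42.44 FPKM in knockout libraries. It rose 4.29-fold, from 8.75 ± 0.312 to 37.5 ± 4.67 FPKM (SD, n = 3 each; limma log2 difference 1.98 ± 0.1, SE, adjusted p = 4.19e-05), and the noncoding Dio3os beside it rose from 3.51 ± 0.723 to 6.5 ± 0.691 FPKM (adjusted p = 0.00988). Within single libraries the ratio of Dio3 to Dlk1 was 2.11 ± 0.0659 in WT and 114 ± 35 in the knockout (SD, n = 3 each). The ratio of Rian to Meg3 was 0.454 ± 0.0373 and 0.441 ± 0.123, and that of Dlk1 to Meg3 0.289 ± 0.0388 and 0.117 ± 0.0559.

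Of the 116 genes listed from Dlk1 to Dio3, 16 passed the lower filter. Limma called 2 of them higher (Dio3, Dio3os) and 5 lower (Dlk1, Meg3, Rian, Mirg and Mir485, the last on 4 fragments in WT and none in the knockout), and 9 were not called; 15.8% of all genes were called in that fit. Mir485 passed the filter only through WT and so had to differ. Most of the 9 not called are small RNAs with at most 4 fragments in either group. These are Gm27300, Mir1906-1, Mir341, DQ267100, Mir412, Mir410 and Mir3072, and their lack of a call says little. In the 500 kb on each side 11 of 22 genes were tested and 1 was called, Begain, which was lower (0.513 and 0.23 FPKM on average, adjusted p = 0.0257). Rtl1, which is read from the strand opposite the noncoding chain, was at 0.1, 0.16 and 0.06 FPKM in WT and at 0.03, 0 and 0.02 FPKM in knockout libraries and was not tested by limma. Mir485, Begain, Rtl1 and the small RNAs named here were singled out after their values were seen.

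**Figure D3:**
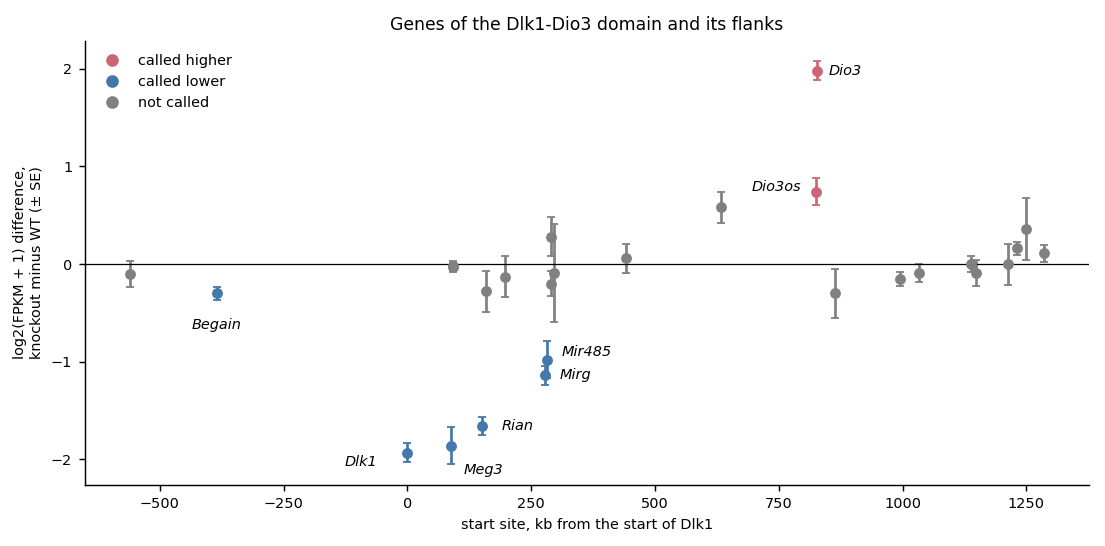
Log2(FPKM + 1) difference, knockout minus WT (± SE), of the genes tested with the lower filter, by the distance of their start site from that of Dlk1 in kb. Dlk1, Meg3, Rian and Mirg lie at -1.93, -1.86, -1.66 and -1.14, and Dio3 at the far end at 1.98.

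Within 250 kb of the members outside chromosome 12, Peg3 and Zim1 aside, limma with the lower filter called 7 of 35 tested genes (20%). That is near the 15.8% of all genes called in either direction in that fit. All of the 7 but Tnnt3 were higher, whereas 8.3% of all genes were called higher and 7.46% lower. It called none of 4 tested genes around Mest and none of 3 around Ndn. Around Grb10 it called 1 of 4, Cobl, which was higher (0.107 and 0.49 FPKM on average, adjusted p = 0.00489), and around Cdkn1c 1 of 8, Tnfrsf26, also higher. Around H19 it called 1 of 9 higher, Gm49394, and 1 lower, Tnnt3. Around Plagl1 it called 3 of 7 higher, Ltv1, Stx11 and B230208H11Rik, although Plagl1 itself was not called. No other gene near Peg3 was tested.

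Beyond the 10 members, 76 other genes of imprinted loci were listed and are called other imprinted genes here. Some are imprinted in a few tissues only, and some, such as Ltv1, were listed as neighbours of imprinted genes. All counts and shares of the 76 include such neighbours. Of the 76, 73 were in the table, 13 were at 0 in all libraries and 31 passed the filter of 1 FPKM. Limma called 4 higher and 9 lower, 18 were not called, and their median log2 difference was -0.09, against 0.01 over all tested genes; edgeR called 8 higher and 11 lower of 52. The 13 called by limma are 41.9% of the 31, against 19.6% of all tested genes, but Slc38a4 and Mirg passed the filter only through WT and so had to differ. Among the 28 with at least 1 FPKM in all 6 libraries 4 were higher and 6 lower, and limma called 18% of all such genes in either direction. The lists were chosen with earlier results of these data known, and the share of 41.9% is a description only. By cluster, all 4 tested genes of the Dlk1-Dio3 cluster described above were called, 2 higher and 2 lower. So 4 of the 13 come from 1 domain. In the Igf2-H19 and Kcnq1 clusters 0 of 4 tested genes were called, and 2 of 3 of the wider Ndn-Snrpn cluster were lower. In a list of the Mest and Peg10-Sgce clusters and other genes of chromosome 6, 1 of 4 was higher. The 1 tested gene listed as a neighbour of Grb10 and Plagl1, Ltv1, was higher. No gene of the Peg3 domain was tested, and of the 15 tested genes of other loci 5 were lower and none higher.

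Slc38a4, an amino acid transporter made from the paternal copy, had the largest log2 difference of the 31. It was at 8.14, 8 and 8.48 FPKM in WT and at 0.1, 0.03 and 0.13 FPKM in knockout libraries (limma log2 difference -3.08 ± 0.08, SE, adjusted p = 3.75e-06). Dcn, which encodes the matrix proteoglycan decorin, fell from 17.4 to 3.26 FPKM on average (adjusted p = 2.4e-05, limma). Snrpn, a splicing protein gene in the same cluster as Ndn, fell from 6.82 to 3.83 FPKM (adjusted p = 0.0183), and Atp10a from 13 to 8.29 FPKM (adjusted p = 0.00431). Snrpn missed the threshold without WT replicate 1 or 3 or knockout replicate 1 or 2 (limma adjusted p = 0.0503 to 0.0696). Zrsr1 fell from 3.08 to 1.5 FPKM (adjusted p = 0.00489) and Pde10a from 2.22 to 1.15 FPKM (adjusted p = 0.00714), while Ltv1 rose from 12.7 to 17.8 FPKM (adjusted p = 0.00447, limma). Herc3, which holds the imprinted Nap1l5 in an intron, was called higher at 1.08 and 1.76 FPKM (adjusted p = 0.0163) but missed the threshold without any 1 of the WT replicates or knockout replicate 1 (0.0523 to 0.0682). Nap1l5 itself was at 0.24, 0.22 and 0.34 FPKM in WT and at 0.09, 0 and 0 FPKM in knockout libraries. It passed the lower filter only through WT and so had to differ, and edgeR did not call it (adjusted p = 0.137). Nap1l5 was singled out after its values were seen.

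**Figure D4:**
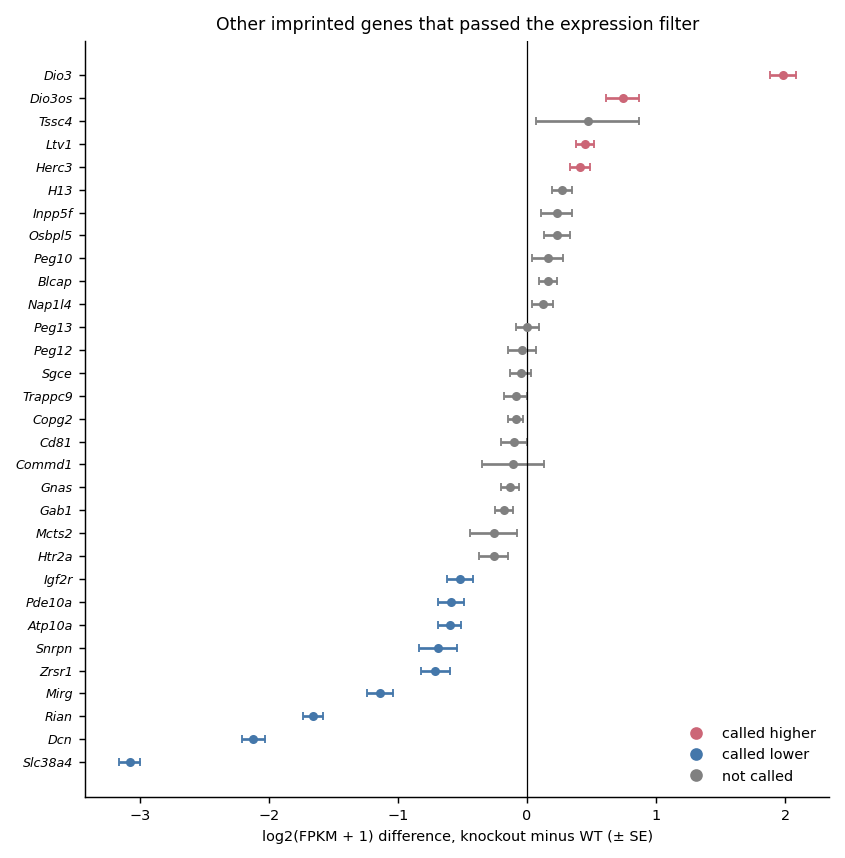
Log2(FPKM + 1) difference, knockout minus WT (± SE), of the 31 other genes of imprinted loci, listed neighbours included, that passed the filter of 1 FPKM in 3 libraries. The 4 called higher (red) and 9 called lower (blue) lie on both sides of 18 that were not called (grey), with Dio3 at 1.98 and Slc38a4 at -3.08 as the extremes.

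The IGF axis links several of these genes, since Igf2 shares an imprinted cluster with H19, Igf2r clears the IGF2 protein, and Grb10 acts on the receptors. Igf2 was listed at 0 in all WT libraries and at 0.03, 0.04 and 0.07 FPKM in knockout libraries. Its 53 counts there, scaled for library totals, are 4.35-fold a floor of 12 counts set for the WT group. The adjusted p was 0.0192 in edgeR and 0.123 in limma without a filter. Igf2 passed edgeR's filter only through the knockout and so had to differ, and nothing is read from its edgeR call. The counting error of the 53 counts is not covered. Igf2 overlaps Gm49394 on the same strand, the gene called higher around H19. How reads were divided between Igf2 and Gm49394 was not tested, so the Igf2 counts may not be the whole signal there. Igf2r was at 29.16, 33.47 and 31.13 FPKM in WT and at 19.33, 24.71 and 20.81 FPKM in knockout libraries. It was called lower (limma log2 difference -0.52 ± 0.1, SE, adjusted p = 0.0154), a call lost without WT replicate 2 or 3 or knockout replicate 1 (0.053 to 0.058). The receptors Igf1r (adjusted p = 0.376) and Insr (0.388) were not called.

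Of 25 genes of the IGF and insulin axis, 20 were tested, 3 called higher and 9 lower, with a median log2 difference of -0.24. Igfbp3, Igfbp5 and Igf2bp3 passed the filter through 1 group only and so had to differ. Of the 15 genes with at least 1 FPKM in all 6 libraries 1 was higher and 7 were lower, and limma called 18% of all such genes. The binding proteins moved in both directions. Igfbp3 was at 35.84, 36.82 and 32.58 FPKM in WT and at 0.8, 0.9 and 0.95 FPKM in knockout libraries (limma log2 difference -4.26 ± 0.08, SE, adjusted p = 1.48e-06). Igfbp5 was at 0.25, 0.38 and 0.41 and at 9.39, 11 and 11.01 FPKM (3.09 ± 0.1, SE, adjusted p = 9.56e-06). Igfbp6 fell from 133 to 42.2 FPKM on average (adjusted p = 0.000246), Igfbp2 rose from 38.6 to 60.5 FPKM (adjusted p = 0.011), and Pappa, a protease that cleaves binding proteins, rose from 1.08 to 4.62 FPKM (adjusted p = 0.001, limma). Igfbp4 was at 13.12, 13.27 and 35.04 FPKM in knockout libraries, replicate 3 standing apart, and at 57.36 to 62.07 FPKM in WT (adjusted p = 0.0196). Its call was lost without any 1 of the other 5 libraries (0.0595 to 0.0664), and without knockout replicate 3 its adjusted p was 8.69e-05.

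Among 17 cyclin-dependent kinase inhibitors and partners, to which Cdkn1c is related in function, limma called 2 higher and 2 lower with a median of -0.04. These are 23.5% of the list, near the 19.6% called among all tested genes. Cdkn2a, which encodes p16INK4a and p19ARF, was at 245.76, 196.27 and 264.1 FPKM in WT and at 58.15, 51.22 and 62.21 FPKM in knockout libraries (adjusted p = 0.000141). Its neighbour Cdkn2b fell from 68 to 48 FPKM (adjusted p = 0.00437). Cdkn1a, which encodes p21 and belongs to the same family as Cdkn1c, rose from 43.7 to 76.8 FPKM (adjusted p = 0.000725). Cyclin gene Ccnd1 was called higher (46.6 and 58.1 FPKM, adjusted p = 0.024), a call lost without any 1 WT replicate or knockout replicate 1, with an adjusted p of up to 0.0902 (limma).

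Of 20 proliferation markers 2 (10%) were called higher and none lower, with a median of 0.14, against 10.4% called higher among all tested genes. Rrm2, a subunit of ribonucleotide reductase, rose from 28.8 to 52 FPKM (adjusted p = 0.000254, limma), while Tpx2 lost its call without any 1 library other than knockout replicate 3 (up to 0.119). Of 17 Notch and DLK partners 8 were tested, with 3 (37.5%) called higher (Jag1, Rbpj, Notch1), none lower and a median of -0.11. The share called higher among all tested genes was 10.4%. All 3 lost their call without any 1 WT replicate or knockout replicate 1, and Notch1 also without knockout replicate 2 (limma adjusted p of up to 0.0717, 0.0714 and 0.0905). Of 26 genes that set or keep imprints, such as DNA methyltransferases and ZFP57 partners, 20 were tested. Limma called 3 (15%) higher (Uhrf1, Tdg, Ezh2), near the 10.4% of all tested genes, and none lower, with a median of 0.15. Each of the 3 lost its call when single libraries were left out: Uhrf1 without WT replicate 1 or 2 or knockout replicate 1 or 2 (up to 0.118), Tdg without any 1 but knockout replicate 1 (up to 0.111), and Ezh2 without WT replicate 1 or 3 or knockout replicate 1 or 2 (up to 0.106). Of 8 relatives of Plagl1 and other growth factors of transcription 4 were tested and 1, Hmga1, was called lower (35 and 23.9 FPKM, adjusted p = 0.0316), a call lost without WT replicate 2 or knockout replicate 1 or 2 (up to 0.109).

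For each called member the 3 genes most like it were sought by Pearson's r of log2(FPKM + 1) over the 6 libraries, among tested genes whose difference had the same sign and lay within 0.5. The values describe likeness only, since 2 separate groups of 3 libraries make r high. Meg3 was most like Npr3 (r = 0.9951), Gm53 and Gm4951; Dlk1 most like Steap4 (0.9987), Ripk3 and Cpxm1. Cdkn1c was most like Sned1 (0.9997), Npy1r and Podn. Grb10 was most like Gja1 (0.9997), Hs3st3a1 and Sobp, Mest most like Vezt (0.9983), Bend6 and Msr1, and Ndn most like Plat (0.9999), Dok1 and Hoxb3. No gene was the nearest of more than 1 member.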

How the data were processed

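The authors deposited 1 table of the whole series with FPKM values and estimated counts per gene, per the file headers. Tools named in the submitters' processing notes are StringTie 1.3.4d, HISAT2 2.0.4 and cutadapt 1.9, and the build is GRCm38. Which annotation was counted, and whether by strand, is not given in the sources used here. Hence overlapping and antisense genes cannot be separated with certainty. The deposited counts are whole-number estimates, and 44.4% of those up to 16 are multiples of 4. Taking 4 counts as 1 fragment is an assumption, since most of these counts are not multiples of 4. All fragment numbers given here rest on it and are approximate.

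The main test used limma 3.58.1 (R 4.3.3; lmFit and trended eBayes, two-sided, no term other than group) on log2(FPKM + 1). It took every gene that reached 1 FPKM in 3 of 6 libraries and applied the Benjamini-Hochberg adjustment over all of them, with a threshold of 0.05. The deposited estimated counts were tested with edgeR 4.0.16 (quasi-likelihood, TMM) and DESeq2 1.42.0 as alternatives. Other alternatives changed the pseudocount to 0.1, the filter to 0.1 FPKM or none, or the scaling, added a replicate block, or left out each library. On simulated data (12136 genes past the filter of 1 FPKM, 50 changed at each size), limma recovered 52% of 1.5-fold, 88% of 2-fold and 100% of 4-fold changes. It called 0.117% of unchanged genes. The simulation gave every gene the same spread between libraries, a coefficient of variation of 0.1. Some members spread more, such as Meg3 in the knockout (3.35 ± 1.05 FPKM, SD). The rates therefore do not carry over to such genes, or to members below the filter. All members were named, with Nlrp3, Igf2, Igf2r, Igf1r and Insr, the called genes of largest difference (4 per direction in each of 7 imprinted lists, 3 in each other list) and the 3 genes most like each called member. The 20 lists hold 265 genes, of which 262 were in the table. Members and lists were chosen with earlier results of these data known. Promoter sequences are RefSeq's (GRCm38.p6); coordinates of genes are those of the table.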

Additional observations from a re-analysis of the deposited data

How the results depend on the processing

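None of the 58 genes for which the alternatives were run changed direction under them; neighbours and unlisted genes of the chromosome 12 domain were not run. Limma called 1117 genes lower; DESeq2 called 1685, and leaving out 1 library gave 721 (without WT replicate 1) to 1314. The other imprinted genes called higher numbered 4, and 8 with edgeR, with edgeR on RLE size factors and with edgeR without a filter, and 9 with DESeq2, which test more genes. The 6 members called by limma kept their calls in all 6 fits that left out 1 library (largest adjusted p = 0.0261), as did Peg3 with the lower filter (0.0295). That last set of fits was chosen after seeing the data. The fits kept the genes that had passed the filter on all 6 libraries. Mest, Dlk1, Cdkn1c and Peg3 had passed only through 1 group and so had to differ, and nothing is read from their kept calls. Of 834 comparisons over 58 named genes, 744 kept their call and 83 lost and 7 gained one, in 16 genes, and the cause was not tested. The replicate numbers were not used to pair the samples in the main test, since the labels disagree on what they mean. Deviations of libraries with the same number correlated at 0.02, 0.168 and 0.096. WT replicates 2 and 3 correlated best with their own number, and WT replicate 1 with knockout replicate 3 (0.081). Knockout replicates 2 and 3 also correlated best with their own number, and knockout replicate 1 equally with WT replicates 1 and 2 (0.02). These values do not decide whether the numbers pair the samples. A replicate block called 1106 genes higher and 980 lower, and 2 members higher and 4 lower. Depth limits Zim1, Igf2 and Cdkn1c in the knockout, at 17, 13.25 and 13.75 fragments, and values given to 2 decimals limit genes below 0.1 FPKM.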
